A study of Arabidopsis with 14 samples.

Results

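Nitrate is the main form in which Arabidopsis takes nitrogen from the soil, and 9 genes that move or reduce it were followed here through whole seedlings with and without NaCl. They are defined by name and locus, were picked with earlier results of these data known, and are 9 of the 37980 rows of the deposited expression tables. They comprise the root uptake carriers NRT1.1 (AT1G12110), NRT2.1 (AT1G08090, listed as NRT2:1) and NRT2.2 (AT1G08100), the xylem carriers NRT1.5 (AT1G32450) and NRT1.8 (AT4G21680), the vacuolar exchanger CLC-A (AT5G40890), the nitrate reductases NIA1 (AT1G77760) and NIA2 (AT1G37130), and the nitrite reductase NIR1 (AT2G15620). Of these, 6 lie on chromosome 1, and NIR1, NRT1.8 and CLC-A lie on chromosomes 2, 4 and 5.

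mRNA was sequenced in 14 libraries, with 2 replicates in each of 7 groups, all from Col-0 seedlings 10 days old that had grown in short days of 8 h light and 16 h dark. WT, a line labelled AtC3H3 OX and a line labelled AtC3H26 OX were sampled untreated and with 150 mM NaCl, after 1, 2 and 4 h. The study's methods state for WT and AtC3H3 OX that RNA of these times was combined, and the labels give the same times for AtC3H26 OX. Untreated WT was sampled as set 1 and set 2, and the labels tie neither set to a line. According to the methods, AtC3H3 was driven by a modified CaMV 35S promoter with a hemagglutinin tag, and several independent lines were kept, so that it is not known which was sequenced. The making of the AtC3H26 line is not given in the sources used here. All seedlings grew on MS agar with sucrose, and NaCl was applied on filter paper in MS solution, a medium that itself holds nitrate and ammonium. No library labelled untreated is described as moved to such paper for the same hours. NaCl, fresh medium, handling and the hours that passed therefore cannot be told apart.

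Once inside the root, nitrate can be reduced on the spot, stored in the vacuole or sent to the shoot. NRT1.1 is a transporter that works at high and low nitrate and also acts as a nitrate sensor, whereas NRT2.1 is the main high-affinity carrier and is known to be repressed by ammonium and ample nitrate. NRT1.5 loads nitrate into the xylem, NRT1.8 takes it back out of the xylem sap, and CLC-A exchanges nitrate for protons at the tonoplast. Nitrate reductase turns nitrate into nitrite in the cytosol, and nitrite reductase turns nitrite into ammonium in the plastid.

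Expression is given as FPKM, which corrects fragment numbers for the length of the transcript and the size of the library. Between 24089 and 24570 genes per library were above 0, and library sums ranged from 665439 to 729899 FPKM. Relative depth, read from the steps between low FPKM values, ranged from 0.638 to 1.07 taking replicate 2 of NaCl-treated WT as 1. AtC3H3, the gene named in the label, reached 20.7 and 23.0 FPKM in WT with NaCl but 14.8 and 13.5 FPKM in the NaCl-treated libraries labelled AtC3H3 OX. AtC3H26 likewise reached 7.97 and 7.50 FPKM in WT with NaCl but 5.11 and 4.39 FPKM in the NaCl-treated libraries labelled AtC3H26 OX. With NaCl the transcript of the named gene was thus lower and not higher, and the lines are called by their labels. Untreated, neither of these genes was called in either line against both sets of WT. The study states that its AtC3H3 lines were chosen as overexpressors by RT-PCR. Markers of root and shoot were above 0 in every library, in 11 of 11 and 10 of 10 genes.

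In WT with NaCl, transcripts of the reductases NIA1 and NIA2 and of NRT1.8 were several-fold higher than in untreated WT, and those of NRT1.5 and NRT1.1 were lower. NIR1 rose slightly, CLC-A was not called, and the high-affinity carriers were near or at 0 in all 14 libraries. Of the 9 genes, 7 passed the filter of at least 1 FPKM in at least 2 libraries, and 4 of these were higher and 2 lower (limma on log2(FPKM + 1), adjusted p under 0.05, 2 libraries against 4). By the same rule 51.1% of all 20436 genes tested were called, 25.6% higher and 25.5% lower, so that the number of calls among the 7 is read against a background of that size. The median log2 fold change was 0.43 over the 7 genes and -0.02 over all genes tested. NRT1.8 passed the filter only through its values with NaCl and had to differ, and of the others 5 of 6 genes were called.

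**Figure D1:**
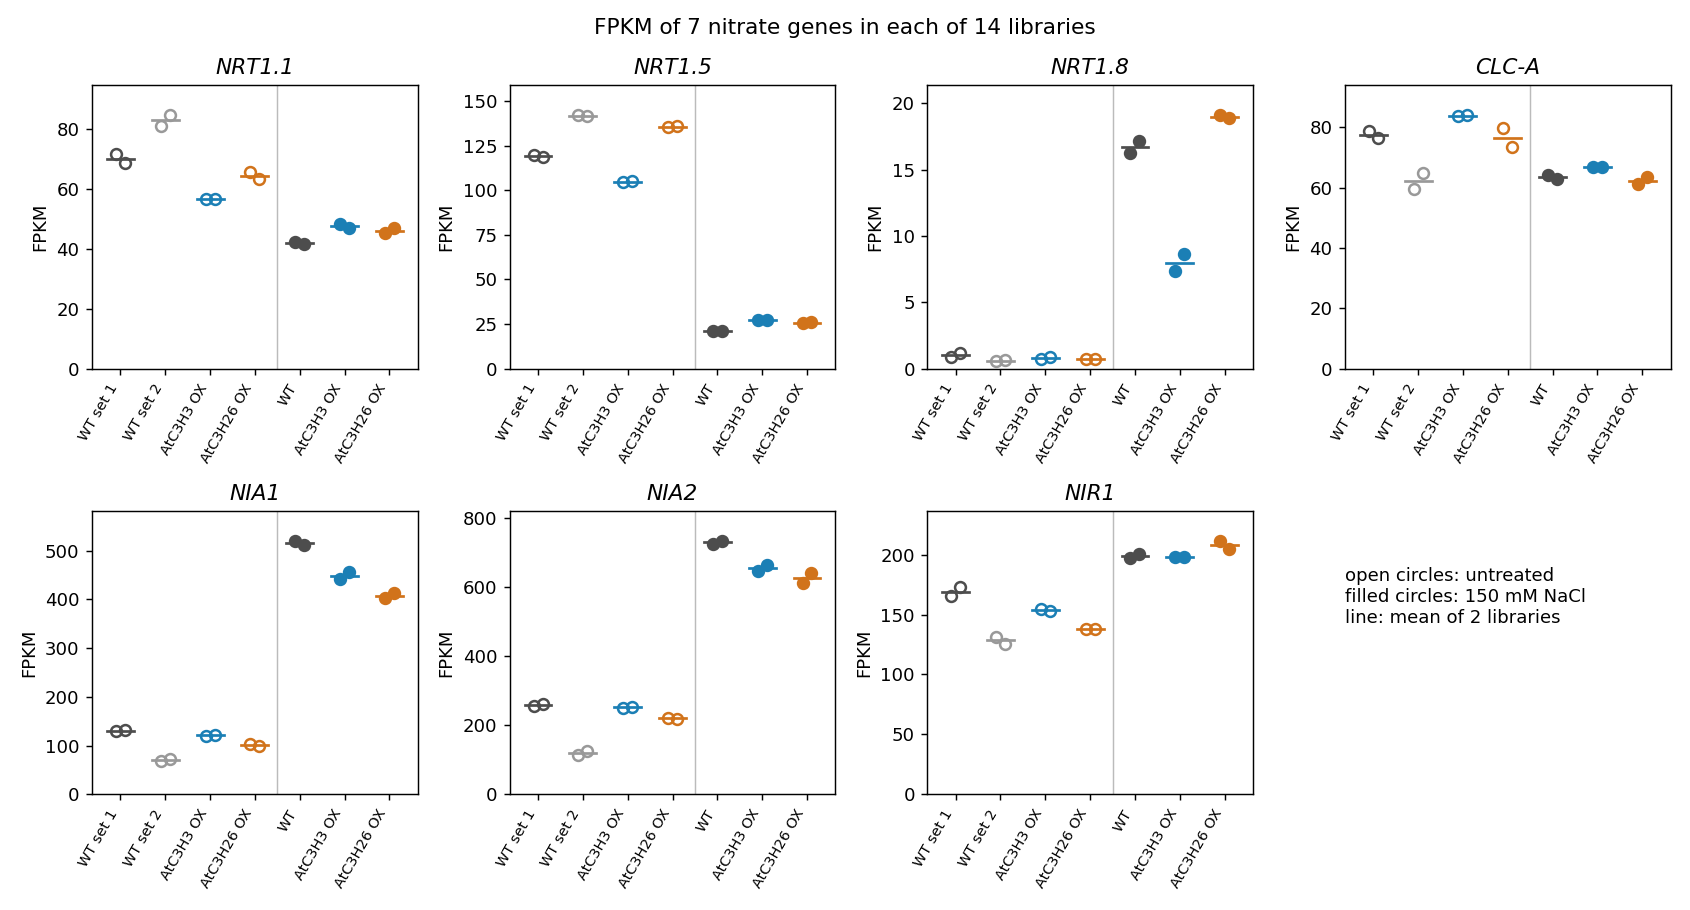
FPKM (vertical axes, linear from 0) of 7 nitrate genes in each of 14 libraries, by group on the horizontal axes. Open circles are untreated libraries, filled circles are libraries with 150 mM NaCl, and lines are means of 2 libraries. NIA1 and NIA2 lie higher and NRT1.5 lower in all 6 libraries with NaCl than in all 8 untreated libraries, and NRT1.8 with NaCl is lowest in libraries labelled AtC3H3 OX.

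NRT1.5 showed the clearest fall. It had 119.5 and 118.8 FPKM in untreated WT set 1, 142 and 141 FPKM in set 2, and 21.2 and 20.8 FPKM in WT with NaCl. The groups were far apart and replicates differed by at most 1.87% of their mean in any group. The mean was 6.21-fold lower with NaCl, and the log2 fold change (-2.57, SE 0.10, limma adjusted p = 4.6e-06, SE being the standard error) ranked 37th from the lowest of 20436 genes. In the libraries labelled AtC3H3 OX it went from 104.5 and 105.2 FPKM untreated to 27.3 and 27.1 FPKM with NaCl, and in those labelled AtC3H26 OX from 135.3 and 136.1 FPKM to 25.5 and 25.95 FPKM. Libraries with NaCl thus held at most 27.3 FPKM and untreated libraries at least 104.5 FPKM.

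NRT1.8, which works against NRT1.5 at the xylem, moved the other way. Untreated WT had 0.913 and 1.14 FPKM in set 1 and 0.539 and 0.6699 FPKM in set 2, and WT with NaCl had 16.3 and 17.2 FPKM. The mean with NaCl was 20.5-fold that of both untreated sets, 16.3-fold that of set 1 alone and 27.7-fold that of set 2 alone. On the log2(FPKM + 1) scale, which understates changes of genes this low, this was an increase of 3.30 (SE 0.15, limma adjusted p = 9.6e-06). The libraries labelled AtC3H26 OX rose from 0.756 and 0.759 FPKM to 19.1 and 18.9 FPKM. In those labelled AtC3H3 OX it rose from 0.720 and 0.841 FPKM to 7.34 and 8.64 FPKM, the lowest level of any group with NaCl.

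The ratio of NRT1.8 to NRT1.5 joined both movements in 1 number per library. Untreated, it ranged from 0.00380 to 0.00961 over 8 libraries with a median of 0.00624. With NaCl it ranged from 0.269 to 0.824 over 6 libraries with a median of 0.739. The ranges did not overlap, and within the NaCl libraries the lowest values, 0.269 and 0.318, were those labelled AtC3H3 OX. This ratio was chosen after the values were seen and is given without a test. FPKM is scaled by transcript length, so that a ratio between genes can be read as one of transcript levels.

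**Figure D2:**
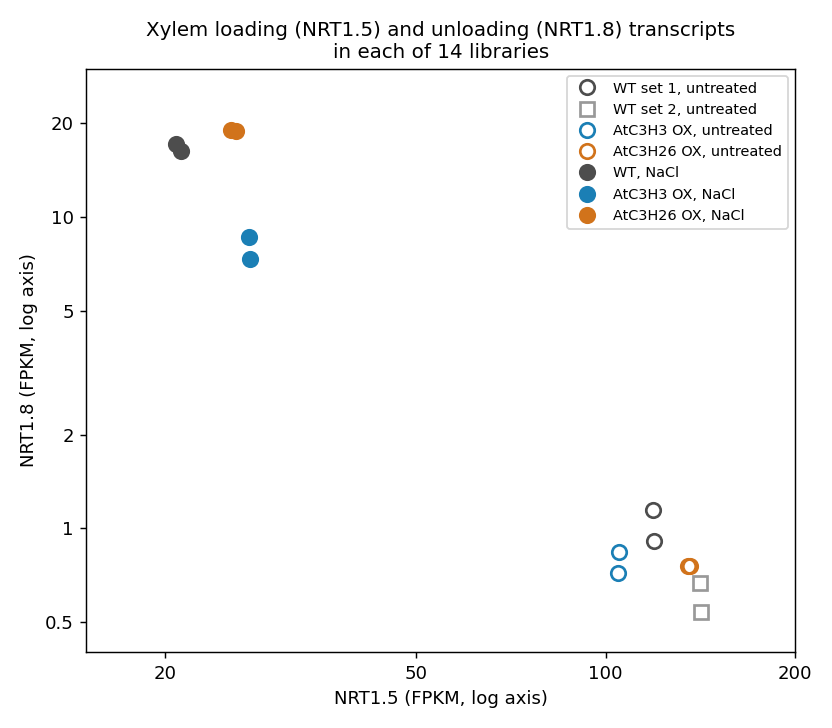
NRT1.5 (horizontal, FPKM, log axis) against NRT1.8 (vertical, FPKM, log axis), 1 point for each of 14 libraries. The 8 untreated libraries (open) hold at least 104.5 FPKM of NRT1.5 and at most 1.14 FPKM of NRT1.8, and the 6 libraries with NaCl (filled) hold at most 27.3 FPKM of NRT1.5 and at least 7.34 FPKM of NRT1.8.

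Both xylem carriers are known mainly from the root, and the samples were whole seedlings, in which fewer cells of a type and less RNA per cell cannot be told apart. Of 11 root markers, none rose and 4 fell in WT with NaCl, with a median log2 fold change of -0.34, where 51.1% of all genes were called. Among those that fell were SKOR and PHO1, which like NRT1.5 are known for loading the root xylem. SKOR, a potassium channel, had 2.39 and 2.45 FPKM in untreated set 1, 1.96 and 2.01 FPKM in set 2, and 0.619 and 0.456 FPKM with NaCl, a mean 4.10-fold lower (log2 fold change -1.06, adjusted p = 0.00062, limma). PHO1, which exports phosphate, had 35.1 and 34.5 FPKM in set 1, 25.7 and 31.5 FPKM in set 2, and 13.6 and 12.99 FPKM with NaCl, a mean 2.38-fold lower (log2 fold change -1.18, adjusted p = 0.00040, limma). In the libraries labelled AtC3H3 OX, SKOR fell by 1.16 and PHO1 by 1.18 on that scale. In those labelled AtC3H26 OX, PHO1 fell by 1.55 and SKOR stood at -0.48 (adjusted p = 0.084, limma). SKOR held at most 0.807 FPKM in any library with NaCl. It passed the filter only through its untreated values and so had to lie lower with NaCl. In the line labelled AtC3H3 OX, 3 of the 11 root markers rose and 4 fell, where 61.3% of all genes were called. Those that rose were RHD2 (0.39), CASP1 (0.37) and PYK10 (0.15), and the 4 that fell were the same as in WT. In the line labelled AtC3H26 OX, 4 rose and 3 fell, where 55.6% were called. The median log2 fold changes of these markers were 0.05 and -0.12 in the 2 lines. EXPA18 and COBL9, genes of root hairs, also fell in WT, by 1.04 and 0.87. COBL9, at 0.898 and 0.914 FPKM in WT with NaCl, passed the filter there only through untreated values. Like SKOR it had to lie lower, and both are among the 4 counted as fallen. EXPA7 and RHD2, also root hair genes, were not called in WT. Their means with NaCl and untreated were 6.33 and 6.69 FPKM for EXPA7 and 3.55 and 3.27 FPKM for RHD2. The summed level of the 11 markers was 1584 to 1585 FPKM with NaCl and 1730.7 to 1909 FPKM in untreated WT. Without PYK10, which takes most of that sum, it was 69.8 to 70.4 FPKM against 96.7 to 104.8 FPKM. Of 10 shoot markers, 1 rose and 6 fell in WT, against the same 51.1% of all genes. The part of tissue proportions in these results was not tested.

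Of the uptake carriers, NRT1.1 fell moderately. Its FPKM was 71.8 and 68.6 in untreated set 1, 81.3 and 84.7 in set 2, and 42.5 and 41.5 in WT with NaCl, or -0.85 on the log2 scale (SE 0.10, limma adjusted p = 0.00049). In the line labelled AtC3H26 OX it fell from 65.6 and 63.4 FPKM to 45.3 and 46.9 FPKM. In the line labelled AtC3H3 OX it fell least, from 56.6 and 56.8 FPKM to 48.4 and 47.2 FPKM. With NaCl all 6 libraries thus lay between 41.5 and 48.4 FPKM, and the groups were more unequal untreated.

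NRT2.1 and NRT2.2 gave no basis for a comparison. NRT2.2 was listed at 0 in all 14 libraries. NRT2.1 was at 0 in 3 libraries and between 0.0219 and 0.227 FPKM in the other 11, the highest value being 10.4 times the smallest. These genes lie next to each other on chromosome 1 as near copies, and how shared reads were divided between them is not given in the sources used here. NRT3.1 (listed as WR3), the partner protein that NRT2 carriers need, was well above them, with 45.6 and 47.1 FPKM in WT with NaCl, 13.99 and 15.7 FPKM in untreated set 1, and 9.48 and 9.20 FPKM in set 2.

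CLC-A stayed in a narrow band. It had 78.7 and 76.6 FPKM in untreated set 1, 59.5 and 64.8 FPKM in set 2, and 64.3 and 62.9 FPKM in WT with NaCl. The values with NaCl lay within the range of set 2 and below set 1. The log2 fold change was -0.13 (SE 0.12, limma adjusted p = 0.42), and it was 0.03 against set 2 alone and -0.28 against set 1 alone. Each line had its own untreated group above its NaCl group, 83.6 and 84.0 against 66.8 and 66.8 FPKM for AtC3H3 OX and 79.7 and 73.5 against 61.1 and 63.4 FPKM for AtC3H26 OX.

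NIA1 and NIA2, the nitrate reductases, held the highest levels among the 9 genes with NaCl. NIA1 had 129.6 and 132 FPKM in untreated set 1, 69.4 and 72.5 FPKM in set 2, and 519.7 and 512 FPKM in WT with NaCl. All libraries with NaCl lay far above all untreated ones, but the size of the rise depended on the untreated set. The mean with NaCl was 3.94-fold that of set 1 and 7.27-fold that of set 2, and against both sets the log2 fold change was 2.41 (SE 0.30, limma adjusted p = 0.00068).

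NIA2, which carries most of the reductase activity in unstressed Arabidopsis, followed the same course from a higher level. It went from 255 and 262 FPKM in set 1 and 113 and 127 FPKM in set 2 to 724 and 732 FPKM with NaCl. These means stood 2.82-fold above set 1 and 6.07-fold above set 2, and 2.04 above both on the log2 scale (SE 0.37, limma adjusted p = 0.0039). In the line labelled AtC3H3 OX, NIA1 went from 120.3 and 123 to 442 and 456 FPKM and NIA2 from 251 and 253 to 646 and 662 FPKM. In the line labelled AtC3H26 OX, NIA1 went from 103 and 99.9 to 403 and 413 FPKM and NIA2 from 222 and 218 to 611 and 640.3 FPKM.

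NIR1, the next enzyme of the pathway, moved much less. It had 165 and 173 FPKM in set 1, 131 and 126 FPKM in set 2, and 197 and 201 FPKM in WT with NaCl, 1.34-fold the mean of both sets. Its log2 fold change of 0.43 (SE 0.14) had a limma adjusted p of 0.041, and 7 of 14 alternatives lost the call. The adjusted p was 0.077 and 0.063 without replicate 1 or 2 of set 2, and 0.15 and 0.17 without replicate 1 or 2 of WT with NaCl. Against set 1 alone the log2 fold change was 0.23 (adjusted p = 0.0022, limma) and against set 2 alone 0.63 (adjusted p = 0.00036, limma).

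Ratios among the reductases differed between treatments. The summed FPKM of NIA1 and NIA2 was 1.39 to 2.45 times that of NIR1 in the 8 untreated libraries and 4.80 to 6.32 times in the 6 libraries with NaCl. NIA1 made up 31.5% to 38.0% of the summed NIA1 and NIA2 untreated and 39.2% to 41.8% with NaCl. Neither pair of ranges overlapped, and both measures were chosen after the values were seen and are given without a test. The highest untreated shares, 36.4% and 38.0%, were those of set 2, where both reductases were lowest.

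**Figure D3:**
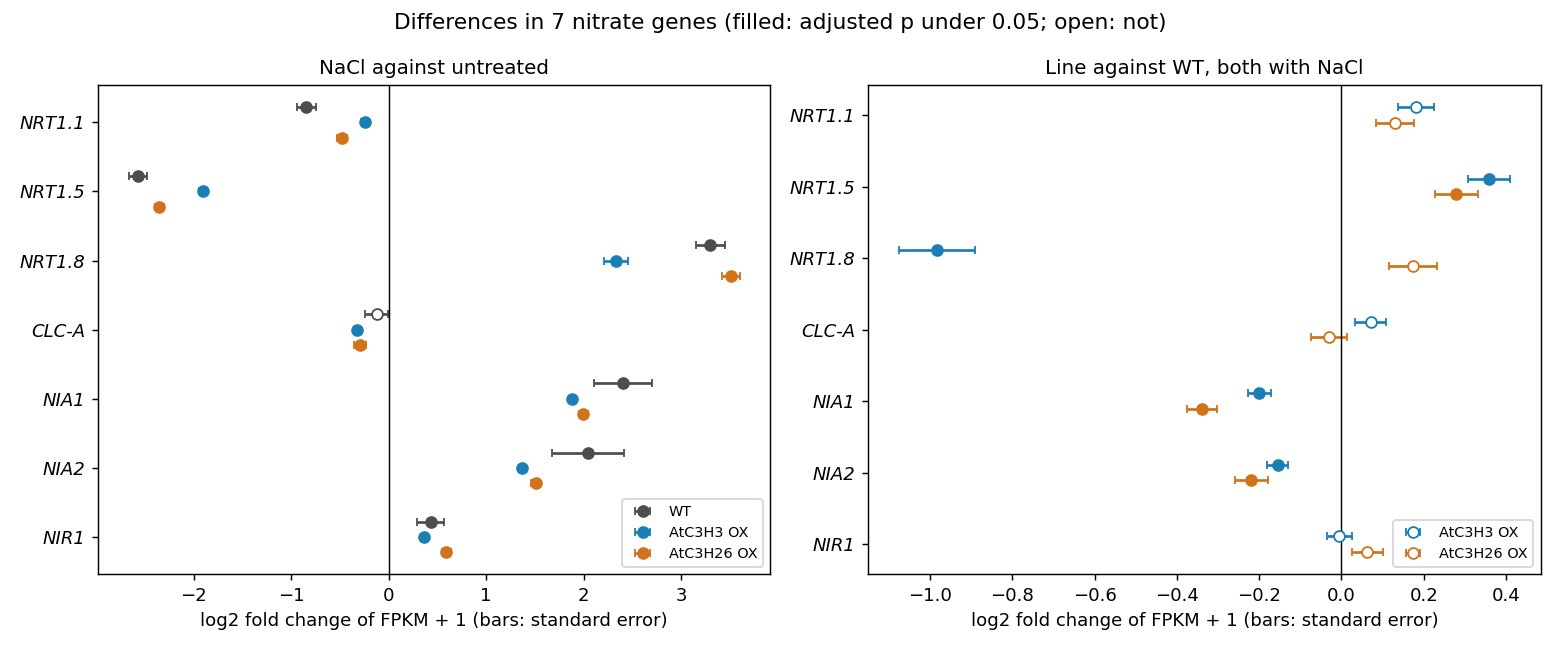
Log2 fold change of FPKM + 1 (horizontal axes) of 7 nitrate genes, with bars of 1 standard error, from limma. Left, NaCl against untreated within WT and each line, where NRT1.8, NIA1, NIA2 and NIR1 lie above 0 and NRT1.5 and NRT1.1 below 0 in all 3. Right, each line against WT with NaCl on a narrower axis, where the farthest point is NRT1.8 in AtC3H3 OX at -0.98. Filled points have an adjusted p under 0.05.

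The response within each line was tested against its own untreated libraries, 2 against 2. In the line labelled AtC3H3 OX all 7 genes tested were called, 4 higher and 3 lower. Over all 19976 genes, 61.3% were called, 31.4% higher and 29.9% lower. In the line labelled AtC3H26 OX all 7 were likewise called, 4 higher and 3 lower. Over all 20055 genes, 55.6% were called, 29.2% higher and 26.4% lower. NRT1.8 again passed the filter only through its values with NaCl. The log2 fold changes for AtC3H3 OX and AtC3H26 OX were 2.33 and 3.51 for NRT1.8, -1.91 and -2.35 for NRT1.5, 1.88 and 2.00 for NIA1, and 1.37 and 1.51 for NIA2. The smaller changes were 0.36 and 0.59 for NIR1, -0.24 and -0.48 for NRT1.1, and -0.32 and -0.29 for CLC-A. Among the 7 genes, the largest adjusted p was 0.0026 in the first line and 0.0082 in the second (limma). Leaving out any 1 library kept every call that could be tested, and NRT1.8 could not be tested without 1 of the NaCl libraries.

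Whether the response differed between a line and WT was tested as an interaction over 10 libraries. For the line labelled AtC3H3 OX, 0 of 7 genes were called by limma, where 0.0769% of 20797 genes were, and 3 of 7 had an unadjusted p under 0.05. These were NRT1.5 (0.66, adjusted p = 0.14), NRT1.1 (0.60, adjusted p = 0.17) and NRT1.8 (-0.97, adjusted p = 0.19), values being differences of log2 fold changes. All 3 had a smaller change with NaCl in the line than in WT. They were called against set 1 alone, against set 2 alone and with all 14 libraries in 1 fit, which treats the sets as separate groups. For the line labelled AtC3H26 OX, 0 of 7 were called by limma, where 1.42% of 20878 genes were, and 1 of 7 had an unadjusted p under 0.05. This was NRT1.1, with a difference of 0.37 (adjusted p = 0.22, limma), and it was likewise called against set 1 alone, against set 2 alone and in the 14-library fit, with a lowest adjusted p of 0.0026 (limma). NIA1, NIA2 and NRT1.5 were called against set 2 alone and in the 14-library fit, and NIR1 against set 1 alone. The shares of all genes given here belong to the fits with both sets pooled. Those of the single-set and 14-library fits are not given, so the calls in them are not read against a background.

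Compared directly with WT under NaCl, the libraries labelled AtC3H3 OX had 1 gene higher and 3 lower out of 7 tested. Over all 19642 genes, 2.67% were called, 1.3% higher and 1.37% lower. NRT1.8 was 2.09-fold lower in mean FPKM, at 7.34 and 8.64 against 16.3 and 17.2 FPKM. Its log2 fold change (-0.98, SE 0.09, limma adjusted p = 0.010) was the 51st lowest of all genes tested. It was called in 9 of 10 alternatives, the exception being no filter on low values, with an adjusted p of 0.060. NRT1.5 was 1.30-fold higher, at 27.3 and 27.1 against 21.2 and 20.8 FPKM (log2 fold change 0.36, adjusted p = 0.031, limma).

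The other differences of this line were small. NIA1 stood at -0.20 (adjusted p = 0.032) and NIA2 at -0.16 (adjusted p = 0.045) on the log2 scale in limma, with each library of the line below each WT library. Without replicate 1 or 2 of WT or without replicate 1 of AtC3H3 OX, NRT1.8 alone kept its call. Adjusted p rose to at most 0.14 for NIA1, 0.20 for NIA2 and 0.13 for NRT1.5 in limma. Without replicate 2 of AtC3H3 OX, NRT1.5 alone lost its call, at an adjusted p of 0.053. NRT1.1 (0.18), CLC-A (0.07) and NIR1 (-0.01) did not pass the test.

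NaCl-treated libraries labelled AtC3H26 OX had 1 gene higher and 2 lower than WT out of 7 tested. Over all 19670 genes, 7.09% were called, 2.55% higher and 4.54% lower. NIA1 stood at 403 and 413 against 519.7 and 512 FPKM, which is -0.34 on the log2 scale (SE 0.04, limma adjusted p = 0.0094). NIA2 stood at 611 and 640.3 against 724 and 732 FPKM, or -0.22 on that scale (limma adjusted p = 0.035). NRT1.5 was 1.22-fold higher (log2 fold change 0.28, adjusted p = 0.037, limma).

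NRT1.8 did not pass in this line, at 19.1 and 18.9 FPKM and a log2 fold change of 0.17 (adjusted p = 0.15, limma). Without replicate 1 or 2 of WT no gene of the 7 was called, with adjusted p of 0.13 for NIA1 in either case. Without replicate 1 or 2 of AtC3H26 OX, NRT1.5 lost its call at 0.052 and 0.080. Both lines were set against the same WT libraries with NaCl, so that high NIA1 and NIA2 or low NRT1.5 in these would enter both comparisons alike.

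Untreated, no member was called in either line against both sets of WT. For AtC3H3 OX it was 0 of 6 by limma, where 0.0449% of 20056 genes were called, and 2 of 6, NRT1.1 and NRT1.5, had an unadjusted p under 0.05. For AtC3H26 OX it was 0 of 6 by limma, where 1.65% of 20174 genes were called, and 1 of 6, NRT1.1, had an unadjusted p under 0.05. These counts turned on the untreated WT set. AtC3H3 OX had 2 genes called against set 1 alone and 6 against set 2 alone, and AtC3H26 OX had 4 and 3. The shares above belong to the fits with both sets, and those of the single-set fits are not given here. For AtC3H26 OX, NIA1 was lower than in set 1 by a log2 fold change of -0.37 and higher than in set 2 by 0.51.

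Untreated WT itself was not uniform. Set 2 had 1 gene higher and 4 lower than set 1 out of 6 tested. Over all 19783 genes, 10.1% were called, 2.81% higher and 7.32% lower. NIA2 was 2.15-fold and NIA1 1.84-fold lower in set 2, which is -1.10 (SE 0.07, limma adjusted p = 0.00053) and -0.87 (SE 0.06, limma adjusted p = 0.00058) on the log2 scale. NIR1 was lower by -0.39 and CLC-A by -0.32, and NRT1.5 was higher by 0.25. Without replicate 1 or 2 of set 1 the count fell from 5 to 2, and NIA1 and NIA2 were called in all 10 alternatives.

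Some genes of nitrate signalling also differed between the sets. Of 26 tested, 7 were lower, 1 higher and 18 not called in set 2, with a median log2 fold change of -0.06 against -0.35 over the 6 nitrate genes and -0.03 over all genes, of which 10.1% were called. BT2, a scaffold protein that represses nitrate uptake genes, had 118 and 116 FPKM in set 1 and 6.80 and 8.26 FPKM in set 2 (log2 fold change -3.79, adjusted p = 1.3e-05, limma). Its relative BT1 stood at -2.64, HHO3, a repressor of nitrate starvation genes, at -1.69, and LBD39, a repressor of nitrate-responsive genes, at -1.12. HHO2, LBD38 and LBD37 were also lower, and ANR1, a regulator of lateral roots, was higher.

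In BT2 and NIA2 both lines fell between the sets. BT2 had 98.5 and 100.5 FPKM in untreated AtC3H3 OX and 17.0 and 16.6 FPKM in untreated AtC3H26 OX. NIA2 had 251 and 253 FPKM and 222 and 218 FPKM there, between the 255 and 262 FPKM of set 1 and the 113 and 127 FPKM of set 2. AtC3H3 OX thus lay near set 1 in both genes, and AtC3H26 OX lay near set 2 in BT2 but nearer set 1 in NIA2. Clock genes, which mark the time of day, summed to 189.2 to 189.5 FPKM in set 1 and to 190.3 to 201 FPKM in set 2. Of the 10, 1 was higher and 1 lower in set 2, where 10.1% of all genes were called. The sum hides genes that moved apart, with PRR9 1.75-fold higher and ELF4 1.47-fold lower in mean FPKM in set 2. The part of harvest time or growth conditions in the difference between the sets was not tested.

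**Figure D4:**
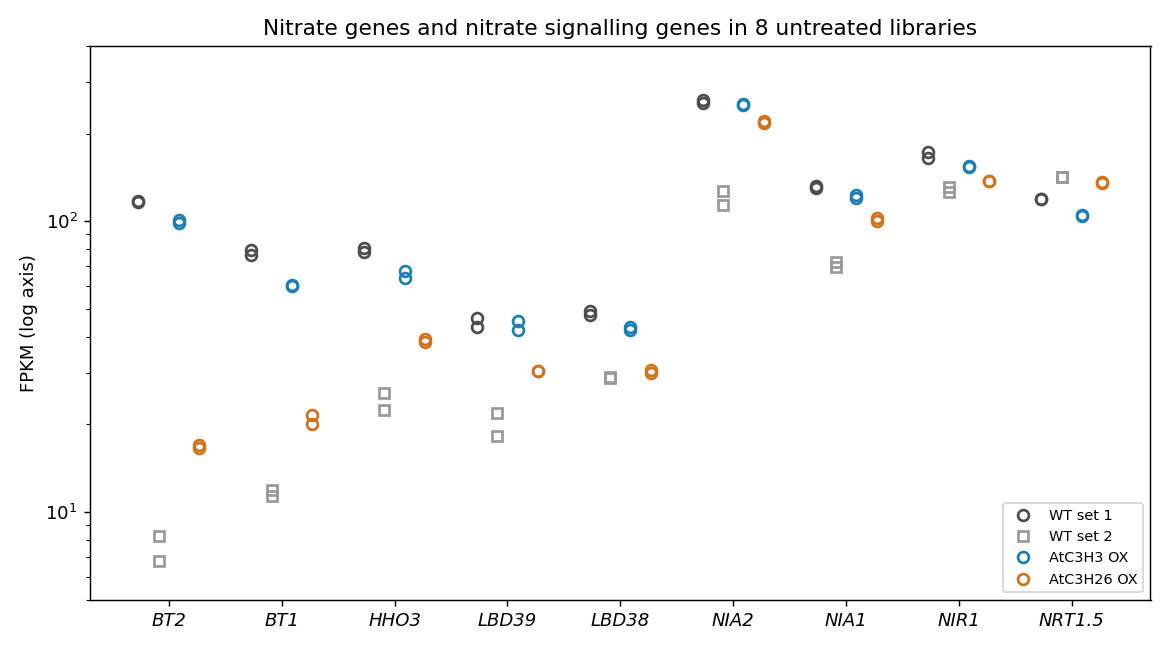
FPKM (vertical, log axis) of 5 nitrate signalling genes, chosen after their values were seen, and of NIA2, NIA1, NIR1 and NRT1.5 in the 8 untreated libraries, 2 points per group. WT set 1 (dark circles) and set 2 (grey squares) are farthest apart in BT2, at 118 and 116 against 6.80 and 8.26 FPKM, and set 2 is lowest in the other 4 signalling genes and in NIA2, NIA1 and NIR1.

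Ranking the 7 groups by mean FPKM showed where neighbours could not be separated. For NIA1 and NIA2 the order was WT, AtC3H3 OX and AtC3H26 OX with NaCl, then untreated set 1, AtC3H3 OX, AtC3H26 OX and set 2, and no neighbours overlapped. NRT1.5 and NRT1.1 also had no overlapping neighbours. NIR1 overlapped between WT and AtC3H3 OX with NaCl, NRT1.8 between the untreated lines, and CLC-A in 3 neighbouring pairs. With 2 libraries per group, such separation describes these libraries only.

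Other carriers of nitrate moved in both directions with NaCl in WT. Of 13 tested, 7 were higher, 5 lower and 1 not called, with a median log2 fold change of 0.39, where 51.1% of all genes were called (25.6% higher and 25.5% lower) with a median of -0.02. NRT1.7, which loads nitrate into the phloem of old leaves, had 115 and 119.8 FPKM with NaCl, 11.2 and 10.9 FPKM in untreated set 1 and 8.29 and 8.66 FPKM in set 2 (log2 fold change 3.47, adjusted p = 4.4e-06, limma). NRT2.7, a tonoplast carrier known from seeds, rose by 2.09 and NRT3.1 by 1.89, and NRT1.11, a phloem carrier, fell by 1.54 on the log2 scale. Against WT with NaCl, AtC3H3 OX was lower in NRT1.7 (-0.45) and higher in NRT1.11 (0.56), and AtC3H26 OX was lower in NRT2.7 (-0.61) and in NRT1.4 (-0.27), a carrier of the petiole.

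Of 12 genes tested for the supply of cofactor and electrons to the reductases, 5 were higher, 2 lower and 5 not called in WT with NaCl, a share near the 51.1% of all genes called, with a median log2 fold change of 0.18. CNX2, which acts in the first step of molybdenum cofactor synthesis, rose by 1.53. RFNR1 and RFNR2, ferredoxin-NADP reductases of the root, moved apart, at 0.89 and -1.43, and G6PD2, a plastid glucose-6-phosphate dehydrogenase, rose by 0.94. None of the 12 was called in either line against WT with NaCl in limma, and 2 in AtC3H3 OX and 6 in AtC3H26 OX had an unadjusted p under 0.05.

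Downstream, 7 of 16 genes of ammonium uptake and assimilation were higher, 3 lower and 6 not called in WT with NaCl, with a median of 0.04, against 51.1% of all genes called. ASN1, an asparagine synthetase, rose by 2.92 on the log2 scale, and its untreated level depended on the set, at 45.2 and 46.5 FPKM in set 1 and 13.2 and 12.9 FPKM in set 2 against 191 and 194 FPKM with NaCl. GDH2, a glutamate dehydrogenase, rose by 1.93 and the ammonium transporter gene AMT2;1 by 1.52, and AMT1;3, another ammonium transporter gene, fell by 1.25. In AtC3H3 OX with NaCl only GDH2 of the 16 was called against WT (-0.37). In AtC3H26 OX with NaCl, ASN1 (-0.60), GDH2 (-0.39) and AMT1;2 (-0.32) were lower and AMT1;1 (0.41), GLN1;2 (0.27) and ASN2 (0.26) higher.

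Nitrate signalling genes showed 5 higher, 5 lower and 16 not called of 26 tested in WT with NaCl, with a median of -0.08, a share of calls below the 51.1% of all genes. NLP8, a regulator of nitrate-promoted germination, rose by 1.03, CIPK8, a kinase of the nitrate response, by 1.00 and CBL1, a calcium sensor, by 0.91. HHO1, a repressor of the GARP family, fell by 0.75. BT1 and BT2 had log2 fold changes of 2.35 and 2.21 that did not pass the test (adjusted p = 0.062 and 0.19, limma), their untreated sets being far apart. In AtC3H26 OX with NaCl, BT1 (-0.45), BT2 (-0.45) and NLP7 (-0.26), a central regulator of the nitrate response, were lower than in WT. In AtC3H3 OX none of 25 was called by limma, and 4 had an unadjusted p under 0.05.

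Of 10 clock genes tested, 7 were higher and 2 lower in WT with NaCl, where 51.1% of all genes were called, and their sum was 373 to 440.4 FPKM in the 6 libraries with NaCl and 184 to 201 FPKM in the 8 untreated libraries. NIA1 and NIA2 are known to follow the time of day, and the part of the hours between untreated and NaCl harvest was not tested. The 4 salt markers tested were higher in all 3 NaCl responses, with sums of 2077 to 2794 FPKM against 133 to 278 FPKM.

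The patterns over the 14 libraries were also compared with those of 14256 genes with a mean of at least 5 FPKM, as Pearson's r on log2(FPKM + 1). The libraries share a split by treatment, so that many genes reach a high r. NIA1 was most like ATAF2 (r = 0.9986), a NAC transcription factor, and NRT1.5 was most like FLA8 (r = 0.997), an arabinogalactan protein. For each of the pair, 42 genes had an r above 0.99. NRT1.8 was most like ELI3-2 (r = 0.996), an alcohol dehydrogenase of the defence response, and NIA2 most like AT1G61740 (r = 0.994). NRT1.1 was most like UGT72E2 (r = 0.984), a glucosyltransferase of monolignols, NIR1 most like CRK11 (r = 0.982), a receptor-like kinase, and CLC-A most like AT1G70000 (r = 0.979). For these 3 no gene had an r above 0.99.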

How the data were processed

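Reads were trimmed and mapped by the authors to TAIR10 with TopHat, and FPKM were estimated with Cufflinks. The deposited values are FPKM without the quantile normalization named in the methods, since upper quartiles differ between libraries (18.2 to 20.2 FPKM). Read counts are not used here, so depth is known only in relative terms. Rows were matched to loci with the RefSeq annotation of TAIR10.1: 23014 by symbol or locus, 14294 by synonym, and 672 not matched singly. Genes reaching 1 FPKM in 2 or more of the compared libraries were tested with limma 3.58.1 (trend) in R 4.3.3 on log2(FPKM + 1), with Benjamini-Hochberg adjustment over all genes tested. The count test planned for count tables could not be applied to FPKM. The test was run on simulated data with normal noise, its spread taken from the 2 replicates of WT with NaCl. Such noise is what the test assumes, so the simulation does not check that assumption, and its outcome is not given here. The simulation held no difference between the untreated WT sets, so it does not cover the comparisons that pool them. p-values measure the spread between 2 replicates per group, which the methods call biological. Where both untreated WT sets formed 1 group of 4, this spread also holds the difference between the sets.

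All 9 members were named. From each pathway list, up to 4 called genes with the largest change in WT with NaCl were named, with any gene called between a line and WT. For likeness, the most similar genes were taken. Members and lists were chosen with earlier results of these data known. NRT3.2, HRS1, AKT1 and RAB18 were listed but not matched to a single row and were not used. Alternatives were a pseudocount of 0.1, no filter, quantile normalization, median-of-ratios factors, a replicate block, all 14 libraries in 1 fit, single WT sets and leaving out each library.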

Additional observations from a re-analysis of the deposited data

How the results depend on the processing

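The counts of nitrate genes called in the 3 NaCl responses stayed within 1.5-fold under every alternative run (5 to 6 in WT and 6 to 7 in each line when 1 library was left out). Against WT with NaCl, the count without a filter on low values moved from 4 to 0 for AtC3H3 OX and from 3 to 1 for AtC3H26 OX, and it ranged from 1 to 3 and from 0 to 2 when 1 library was left out. Set 2 against set 1 moved from 5 to 3 without the filter, and ranged from 2 to 6 when 1 library was left out. With all 14 libraries in 1 fit, set 1 alone and set 2 alone, the counts were 5, 2 and 6 for AtC3H3 OX untreated, 2, 4 and 3 for AtC3H26 OX untreated, 5, 3 and 7 for the AtC3H3 OX interaction, and 4, 2 and 4 for the AtC3H26 OX interaction, against 0 in each with the sets pooled. The cause was not tested. The shares of all genes called in these fits are not given here, so these counts are not read against a background.

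Same-numbered replicates deviated together weakly at most (r from -0.102 to 0.162 over 21 pairs of groups and 11799 genes, 2 pairs above 0.1). The 2 pairs were WT set 2 with AtC3H26 OX, with NaCl (0.162) and untreated (0.125). Replicate numbers were not used as pairs in the main fits, and a batch or harvest shared by number was not tested. With the replicate block, the AtC3H26 OX count with NaCl moved from 3 to 1, and the other counts stayed within 1.5-fold.

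Directions turned in 18 of the alternatives for single genes, as log2 fold changes. With set 1 alone, AtC3H3 OX untreated gave -0.11 for NIA1, -0.034 for NIA2 and -0.13 for NIR1, AtC3H26 OX untreated gave -0.37 for NIA1, -0.23 for NIA2 and -0.021 for CLC-A, and the interactions gave 0.13 for NIR1 (AtC3H3 OX) and 0.028 for NIA1 and 0.013 for NIA2 (AtC3H26 OX). With set 2 alone, CLC-A in the WT response gave 0.033, AtC3H26 OX untreated gave 0.098 for NIR1 and -0.062 for NRT1.5, and its interaction gave -0.035 for NIR1. With 1 library left out, NIR1 ranged from -0.021 to 0.0094 in AtC3H3 OX with NaCl, from -0.012 to 0.14 in AtC3H3 OX untreated and from -0.15 to 0.0066 in its interaction, and NIA1 from -0.084 to 0.22 in AtC3H26 OX untreated. The cause was not tested. NRT2.1, NRT2.2 and untreated NRT1.8 were low in FPKM, which limits comparisons of them, and the part of depth in this was not tested.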
